A study of Mus musculus with 24 samples.

Results

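Epithelial cells line ducts, tubes and surfaces, and adipose tissue has few of its own. Mesothelium covers the fat of body cavities, and the female inguinal pad holds mammary ducts. The transcripts described here are those of 10 genes that mark epithelial cells: Epcam, Cdh1, Krt7, Krt8, Krt18, Krt19, Krt14, Krt15, Elf5 and Muc1. They were taken by name from a table of 37991 genes, and each of the 10 was matched by its Ensembl identifier and passed the filter on low counts, so none was lost. The names were chosen because they can tell mammary, reproductive tract and urothelial epithelium apart, and not for their response to diet.

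RNA was sequenced from fat labelled subcutaneous inguinal of 24 female mice aged 26 weeks, 1 library per mouse. The mice were WSB/EiJ or CAST/EiJ, inbred strains from wild-caught founders, NZO/HiLtJ, an obese inbred strain, or C57BL/6J, a common laboratory strain, and the labels give no engineered allele for any of them. From 4 weeks of age 3 mice of each strain ate a high-fat, high-sucrose diet in which fat gave 45% of the energy (HF), and 3 ate a standard diet in which it gave 17% (Std). A library is named by strain, diet and a replicate number that follows deposit order and pairs nothing. Whole pads were used, so fewer cells of a type and less RNA per cell cannot be told apart.

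Epithelial cells share a common core and differ in what they add to it. Epcam is a cell surface adhesion protein and Cdh1 (E-cadherin) the adhesion protein of epithelial junctions. Krt8 (type II) and Krt18 (type I) pair to form the filaments of simple epithelia, with Krt7 and Krt19 as their partners in ducts, urothelium and mesothelium. Krt14 and Krt15 are type I keratins of the basal layer of stratified epithelia, and Krt14 also marks mammary myoepithelial cells. Elf5 is an ETS transcription factor of mammary luminal progenitor and alveolar cells, and Muc1 is a membrane mucin of glandular surfaces, including those of the uterus and the mammary gland. Müllerian epithelium, which lines oviduct and uterus, carries Pax8, urothelium carries uroplakins, and secretory mammary epithelium carries caseins and other milk proteins.

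The start regions of 4 members are shown because these genes followed each other most closely over the libraries, as given further on. They run from 250 bases before to 50 bases after the start of the gene in RefSeq (GRCm38.p6), and RefSeq promoters were matched for 7 of the 10 members. Krt8 (minus strand, chr15:102004293-102004592) and Krt18 (plus strand, chr15:102027966-102028265) start 23874 bases apart, and Krt7 (plus strand, chr15:101412153-101412452) lies in the same keratin cluster, 591939 bases from Krt8. Epcam is on the plus strand at chr17:87635729-87636028. Capitals mark GGGCGG or its reverse complement, the core letters of the motif of SP factors, and TATAAA or its reverse complement, the core of a TATA box, which overlap on both strands in Krt8.
Krt8: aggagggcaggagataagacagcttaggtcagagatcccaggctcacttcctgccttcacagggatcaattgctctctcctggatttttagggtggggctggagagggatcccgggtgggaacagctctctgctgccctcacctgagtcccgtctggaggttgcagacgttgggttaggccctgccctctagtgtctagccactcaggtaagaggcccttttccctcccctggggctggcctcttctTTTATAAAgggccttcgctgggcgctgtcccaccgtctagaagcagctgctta
Krt18: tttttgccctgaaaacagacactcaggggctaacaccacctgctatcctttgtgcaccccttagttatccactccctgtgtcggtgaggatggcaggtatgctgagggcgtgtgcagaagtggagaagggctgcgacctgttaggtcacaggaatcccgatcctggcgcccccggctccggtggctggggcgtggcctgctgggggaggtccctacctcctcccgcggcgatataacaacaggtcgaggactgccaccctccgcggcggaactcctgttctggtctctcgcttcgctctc
Krt7: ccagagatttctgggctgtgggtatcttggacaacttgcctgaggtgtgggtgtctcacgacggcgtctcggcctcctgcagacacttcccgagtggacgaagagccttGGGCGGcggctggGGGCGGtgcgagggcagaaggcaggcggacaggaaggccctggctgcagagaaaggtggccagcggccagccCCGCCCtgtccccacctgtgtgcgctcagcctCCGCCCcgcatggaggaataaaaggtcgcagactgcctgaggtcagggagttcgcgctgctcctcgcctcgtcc
Epcam: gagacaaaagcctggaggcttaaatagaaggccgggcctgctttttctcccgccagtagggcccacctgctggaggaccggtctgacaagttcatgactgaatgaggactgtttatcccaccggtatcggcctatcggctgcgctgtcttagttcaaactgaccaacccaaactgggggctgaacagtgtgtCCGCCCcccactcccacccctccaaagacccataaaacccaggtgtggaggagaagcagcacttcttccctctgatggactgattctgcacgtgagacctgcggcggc
GGGCGG was found 4 times for Krt7, once for Epcam and not in the windows of Krt8 and Krt18, while 35.7% of 32851 RefSeq promoters of the same length hold it. TATAAA was found for Krt8, on both strands of 1 stretch, and 13.6% of promoters hold it. Neither AACCGGTT, a Grainyhead motif that 0.146% of promoters hold, nor CCGGAAG, an ETS motif that 8.86% hold, was found in these 4 windows or in those of Krt14, Muc1 and the 2 starts of Elf5 (both strands searched). No motif searched was held by all 4 genes, which says nothing of the factors themselves.

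Some libraries stood apart in genes that are not members. Pax8 or the uroplakin gene Upk2 reached 1 CPM (counts per 1000000 counts of the library) or more in 6 libraries, a limit chosen after the values were seen. Pax8 lay at 85.5 CPM in CAST/EiJ HF 1, 16.8 CPM in WSB/EiJ HF 2, 16.1 CPM in WSB/EiJ HF 1, 10.9 CPM in C57BL/6J HF 1 and 3.66 CPM in WSB/EiJ Std 3. Upk2 lay at 138 CPM in WSB/EiJ HF 3, where Pax8 was at 0.136 CPM. In the other 18 libraries Pax8 was at 0.452 CPM or less and Upk2 at 0.0539 CPM or less. The adipocyte genes summed to 51.3 CPM in CAST/EiJ HF 1 and to 3970 CPM or more in the other 23 libraries, so the transcripts of that library go against its tissue label. WSB/EiJ HF 2 also held brain transcripts, with Snap25 at 481 CPM against 1.43 CPM or less outside it. CAST/EiJ Std 2, one of the 18, held skeletal muscle transcripts, with a sum over 5 genes of 3988 CPM against 94.9 CPM or less in the other libraries, and its 6 liver genes summed to 667 CPM. Total counts ran from 47651641 to 84009032 per library.

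Epcam followed these libraries. It lay at 33.1, 58.5 and 11.9 CPM in the WSB/EiJ HF libraries, against 0.287, 0.220 and 5.67 CPM in the WSB/EiJ Std libraries. In CAST/EiJ it lay at 175, 0.966 and 1.39 CPM on HF, against 0.968, 2.80 and 0.799 CPM on Std. The 6 highest Epcam values of the study are those of the 6 libraries with Pax8 or Upk2. Epcam lay at 0.0424, 0.0278 and 0.103 CPM in the NZO/HiLtJ HF libraries, each below the Std libraries with 0.168, 0.369 and 0.239 CPM, and these are counts of 2 to 7 against 12 to 31. In C57BL/6J it lay at 11.5, 0.0899 and 0.494 CPM on HF, against 0.305, 0.424 and 0.459 CPM on Std. Outside the 6 libraries the median of Epcam was 0.337 CPM and its maximum 2.80 CPM, in CAST/EiJ Std 2.

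Cdh1 showed the same 6 libraries on top. It lay at 60.5, 73.5 and 117 CPM in the WSB/EiJ HF libraries, against 0.574, 0.382 and 9.46 CPM in the WSB/EiJ Std libraries. In CAST/EiJ HF 1 it reached 320 CPM, while the other CAST/EiJ HF libraries had 0.213 and 0.231 CPM and the CAST/EiJ Std libraries 0.156, 1.77 and 0.241 CPM. C57BL/6J HF 1 had 23.9 CPM, the other C57BL/6J HF libraries 0.521 and 0.540 CPM and the C57BL/6J Std libraries 0.278, 0.589 and 1.15 CPM. In NZO/HiLtJ it stayed between 0.311 and 0.528 CPM on HF and between 0.406 and 1.62 CPM on Std, and these ranges overlap.

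**Figure D1:**
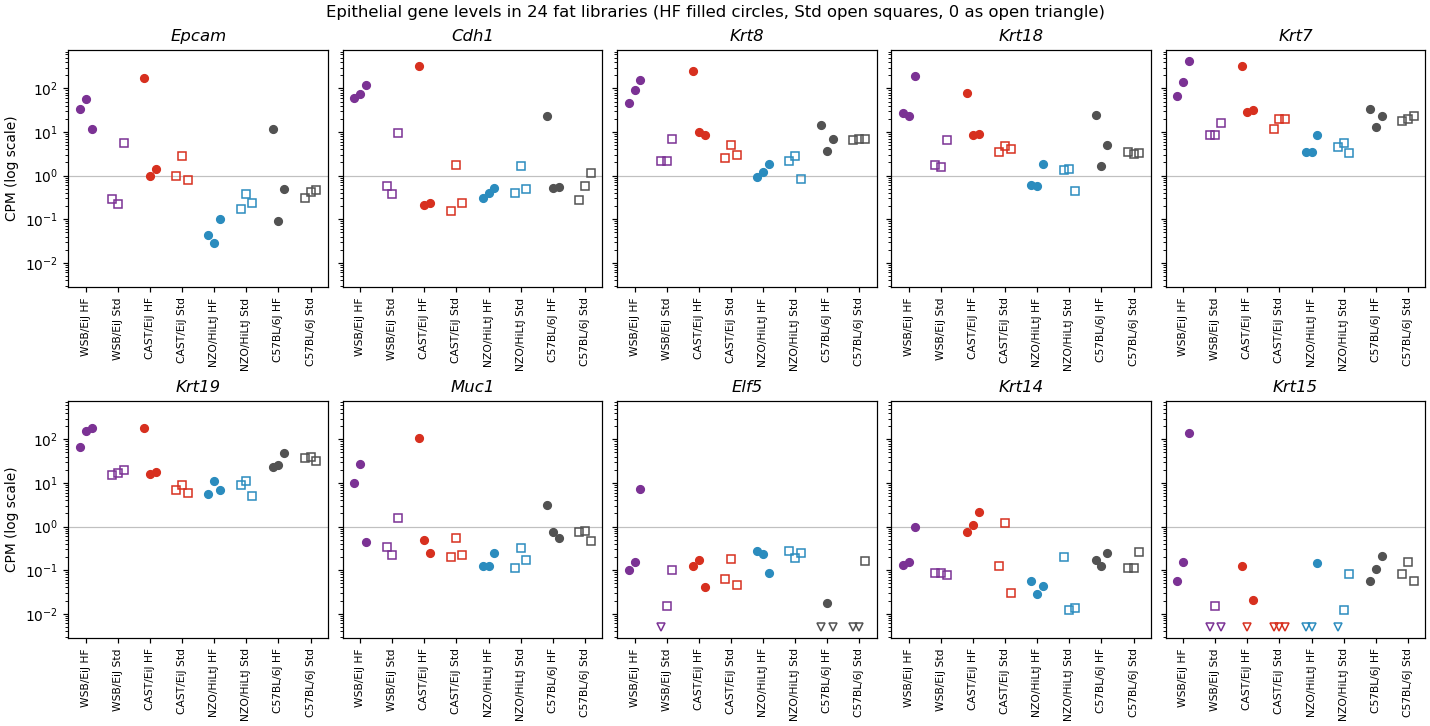
Level of each of the 10 genes in CPM of the library total (log axis) in the 3 libraries of each strain and diet, with HF as filled circles, Std as open squares and libraries at 0 as open triangles at the bottom. Epcam and Cdh1 are high in 6 libraries, Krt7 and Krt19 are above 3 CPM in all 24, and Krt15 and Elf5 are high in WSB/EiJ HF 3, at 138 and 7.38 CPM.

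The 4 simple keratins were present in every library, with or without Epcam. Krt8 lay at 47.1, 94.4 and 160 CPM in the WSB/EiJ HF libraries, against 2.17, 2.15 and 6.80 CPM in the WSB/EiJ Std libraries. In CAST/EiJ it lay at 249, 9.93 and 8.58 CPM on HF, against 2.50, 5.02 and 3.05 CPM on Std, so all 3 HF libraries of both strains lay above the Std libraries. In NZO/HiLtJ it lay at 0.946, 1.24 and 1.8 CPM on HF, against 2.13, 2.86 and 0.850 CPM on Std. C57BL/6J had 14.6, 3.61 and 7.08 CPM on HF, against 6.69, 6.84 and 6.86 CPM on Std, and in these 2 strains the diets overlapped.

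Krt18, the filament partner of Krt8, lay at 27.5, 23.5 and 195 CPM in the WSB/EiJ HF libraries, against 1.78, 1.62 and 6.53 CPM in the WSB/EiJ Std libraries. In CAST/EiJ it lay at 80.5, 8.54 and 9.23 CPM on HF, against 3.45, 4.76 and 4.06 CPM on Std. The HF libraries lay above the Std libraries in both strains, as for Krt8. In NZO/HiLtJ it lay at 0.593, 0.571 and 1.82 CPM on HF, against 1.33, 1.42 and 0.451 CPM on Std. In C57BL/6J it lay at 24.2, 1.65 and 5 CPM on HF, against 3.51, 3.09 and 3.38 CPM on Std, and the diets overlapped in both.

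Krt7 lay at 66.3, 144 and 433 CPM in the WSB/EiJ HF libraries, against 8.56, 8.58 and 15.9 CPM in the WSB/EiJ Std libraries. In CAST/EiJ it lay at 329, 29.3 and 31.9 CPM on HF, against 11.7, 20.2 and 19.7 CPM on Std, without overlap. NZO/HiLtJ had the lowest values, 3.40, 3.46 and 8.46 CPM on HF against 4.51, 5.65 and 3.25 CPM on Std. C57BL/6J had 32.9, 12.8 and 23 CPM on HF against 18.3, 19.7 and 23.5 CPM on Std.

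Krt19 lay at 67.2, 152 and 182 CPM in the WSB/EiJ HF libraries, against 15.4, 17.1 and 20.0 CPM in the WSB/EiJ Std libraries. In CAST/EiJ it lay at 180, 16.0 and 17.7 CPM on HF, against 7.01, 8.83 and 5.97 CPM on Std. Of the simple keratins it was the least tied to the 6 libraries, which held 4 of its 6 highest values. C57BL/6J HF 3 had 47.9 CPM and the C57BL/6J Std libraries 36.7, 39.8 and 32.6 CPM, above the 23 CPM of C57BL/6J HF 1. C57BL/6J HF 2 had 26.2 CPM. In NZO/HiLtJ it ranged from 5.70 to 11.4 CPM on HF and from 4.94 to 10.9 CPM on Std.

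Muc1 was high in 5 of the 6 libraries and not in WSB/EiJ HF 3. It lay at 9.83, 27.3 and 0.435 CPM in the WSB/EiJ HF libraries, against 0.345, 0.220 and 1.56 CPM in the WSB/EiJ Std libraries. In CAST/EiJ it lay at 108, 0.483 and 0.252 CPM on HF, against 0.203, 0.551 and 0.226 CPM on Std. C57BL/6J HF 1 had 3.13 CPM, and outside the 6 libraries the range was 0.112 to 0.780 CPM. The library with the uroplakins was thus within the range of the other 18 libraries for this mucin, although its Krt7 was the highest of the study.

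Krt15 and Elf5 set that library apart in the other direction. Krt15 had 10167 counts (138 CPM) in WSB/EiJ HF 3, against 4 and 10 counts in the other WSB/EiJ HF libraries and 0, 1 and 0 counts in the WSB/EiJ Std libraries. Over the other 23 libraries it did not pass 0.216 CPM, in C57BL/6J HF 3, and all 3 CAST/EiJ Std libraries were at 0, where 3 counts would be 0.0452 to 0.0486 CPM. Elf5 had 543 counts (7.38 CPM) in WSB/EiJ HF 3, against 7 and 10 counts in the other WSB/EiJ HF libraries and 0, 1 and 8 in the WSB/EiJ Std libraries. Elsewhere its highest values were in NZO/HiLtJ, with 0.268 and 0.237 CPM in HF 1 and HF 2 and 0.280, 0.190 and 0.252 CPM on Std, while NZO/HiLtJ HF 3 had 0.0880 CPM, below CAST/EiJ Std 2 with 0.178 CPM and CAST/EiJ HF 2 with 0.174 CPM. In C57BL/6J it was at 0 in 4 of 6 libraries.

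Krt14 was low in every library. Its 3 highest values, apart from 1.18 CPM in CAST/EiJ Std 2, were 2.12, 1.10 and 0.965 CPM in CAST/EiJ HF 3, CAST/EiJ HF 2 and WSB/EiJ HF 3. The CAST/EiJ HF libraries had 0.750, 1.10 and 2.12 CPM, against 0.125, 1.18 and 0.0302 CPM in the CAST/EiJ Std libraries. Krt5, the type II partner of Krt14 in basal cells, was at 0.0193 and 0.0210 CPM in CAST/EiJ HF 2 and HF 3 (1 count each) and at 0.0972 CPM in CAST/EiJ Std 2, so these Krt14 transcripts came with almost no Krt5. Krt17, a keratin of basal and duct cells, was at 0 in the same 3 libraries and in all 18 without Pax8 or Upk2. The remaining libraries had 0.0119 to 0.258 CPM of Krt14. Keratins have near-identical relatives and processed copies, and how the counting shared reads between them is not given in the sources used here, so low keratin values are uncertain.

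Dividing by the Epcam count separated the 6 libraries into a set of 5 and WSB/EiJ HF 3. In the 5 libraries with Pax8, each Epcam count came with 1.88 to 2.87 counts of Krt7, 1.2 to 1.61 of Krt8 and 1.26 to 2.09 of Cdh1. Their Epcam counts ranged from 441 to 11202. Over this range the ratios of Krt7, Krt8 and Cdh1 varied less than those of Krt19, Krt18 and Muc1. Krt19 ranged from 1.03 to 3.54, Krt18 from 0.402 to 2.11 and Muc1 from 0.273 to 0.617 counts per Epcam count. Krt15 did not pass 0.00488, Krt14 0.0146 and Elf5 0.0181. In WSB/EiJ HF 3 the ratios were 36.4 for Krt7, 13.4 for Krt8, 9.84 for Cdh1, 15.3 for Krt19, 16.4 for Krt18, 11.6 for Krt15, 0.621 for Elf5 and 0.0811 for Krt14, each above the 5, and 0.0366 for Muc1, below them. In the libraries with less Epcam part of the keratin counts is also seen where Epcam is nearly absent, as given for the mesothelium, and no part was subtracted.

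**Figure D2:**
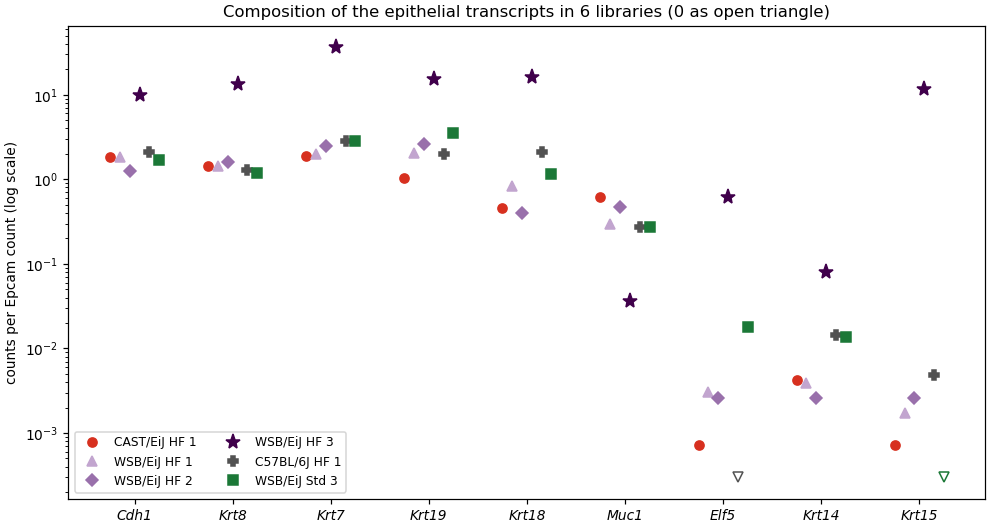
Counts of each gene per count of Epcam (log axis) in the 6 libraries with Pax8 or Upk2 at 1 CPM or more, with libraries at 0 as open triangles. WSB/EiJ HF 3 (star) lies above the other 5 for all genes but Muc1, for which it is lowest at 0.0366.

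Marker lists of 3 epithelial sources were summed per library. The 10 reproductive tract genes summed to 2506 CPM in CAST/EiJ HF 1, 334 CPM in WSB/EiJ HF 2, 246 CPM in WSB/EiJ HF 1, 128 CPM in C57BL/6J HF 1 and 49.4 CPM in WSB/EiJ Std 3, against 8.11 to 45.7 CPM in the 18 libraries. They did not have the same composition. Sprr2f, an oestrogen-responsive gene of the uterus, was at 763 CPM in CAST/EiJ HF 1, 182 CPM in WSB/EiJ HF 2, 37.0 CPM in WSB/EiJ HF 1 and 3.06 CPM in WSB/EiJ Std 3, but at 0.168 CPM in C57BL/6J HF 1, within the 0.0141 to 0.638 CPM of the 18 libraries. Ltf (lactoferrin) had 1353 CPM in CAST/EiJ HF 1 and 21.2 CPM or less elsewhere. Hoxa11 patterns the uterus and also limbs. It was at 53.6 CPM in CAST/EiJ HF 1, 56.3 CPM in C57BL/6J HF 1 and 67.9 CPM in WSB/EiJ HF 1. WSB/EiJ HF 2 had 20 CPM and WSB/EiJ Std 3 19.9 CPM, against 2.68 to 8.7 CPM in the 18 libraries. WSB/EiJ HF 3, the library with Upk2, also lay above the 18, at 14.4 CPM. Pax8 and Pax2 also mark kidney tubules, and the 6 kidney genes summed to 5.65 to 16.8 CPM in the 5 libraries, within the 0.0580 to 79.7 CPM of the 18.

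The 8 urothelial genes summed to 1323 CPM in WSB/EiJ HF 3, against 27.1 CPM or less in the other 23 libraries. Upk1a was at 348 CPM, Upk3a at 242 CPM, Snx31 at 239 CPM, Upk1b at 192 CPM and Psca at 136 CPM in that library. The uroplakins form the plaques of the urothelial surface, and Krt20, the keratin of its surface cells, was at 27.8 CPM there and at 1.2 CPM or less elsewhere. Krt13, also on the list, went the other way, with 1.63 CPM in WSB/EiJ HF 2 and 0.0544 CPM in WSB/EiJ HF 3. Of the 8 genes of the basal list, Krt5 was at 212 CPM there, against 0.0972 CPM or less in the 18 libraries, and Trp63, the basal cell transcription factor p63, at 144 CPM, against 12.8 CPM or less. Krt17 was at 0.0136 CPM. The sum of the 8 was 392 CPM in WSB/EiJ HF 3, within the 43.6 to 590 CPM of the 18 libraries, where Oxtr, the oxytocin receptor, made up most of it, with a median of 221 CPM against 28.3 CPM in WSB/EiJ HF 3. Of 5 basal genes tested for diet in WSB/EiJ, as described further on, 1 was called higher on HF (Trp63), and Krt5 did not pass the low-count filter. Thus Krt15, Elf5, Krt5, Trp63 and the uroplakins were high in the same library, and Elf5 there stood with urothelial genes and not with milk genes.

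Mammary markers were near 0. Csn1s1, Csn1s2a, Csn2 and Csn3 (caseins), Wap and Lalba did not pass 0.154 CPM in any of the 24 libraries, with at most 12 counts. Of 14 mammary luminal genes, Aldh1a3 (1.81 to 17.0 CPM) was the one above 2 CPM, and it reached 17.0 CPM in C57BL/6J HF 2, a library with Epcam at 0.0899 CPM. Tnfsf11 (RANKL), made by hormone-sensing luminal cells and also by lymphoid and bone cells, was at 0.278 CPM or less. The list as a whole summed to 3.02 to 15.5 CPM in the 6 libraries that stood apart and to 2.78 to 17.3 CPM in the other 18. These values do not measure ducts that make no milk, for which Epcam, Krt8, Krt14 and Elf5 are the markers, and in the 18 libraries Epcam, Krt8, Krt14 and Elf5 were at 2.80, 9.93, 2.12 and 0.280 CPM or less.

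**Figure D3:**
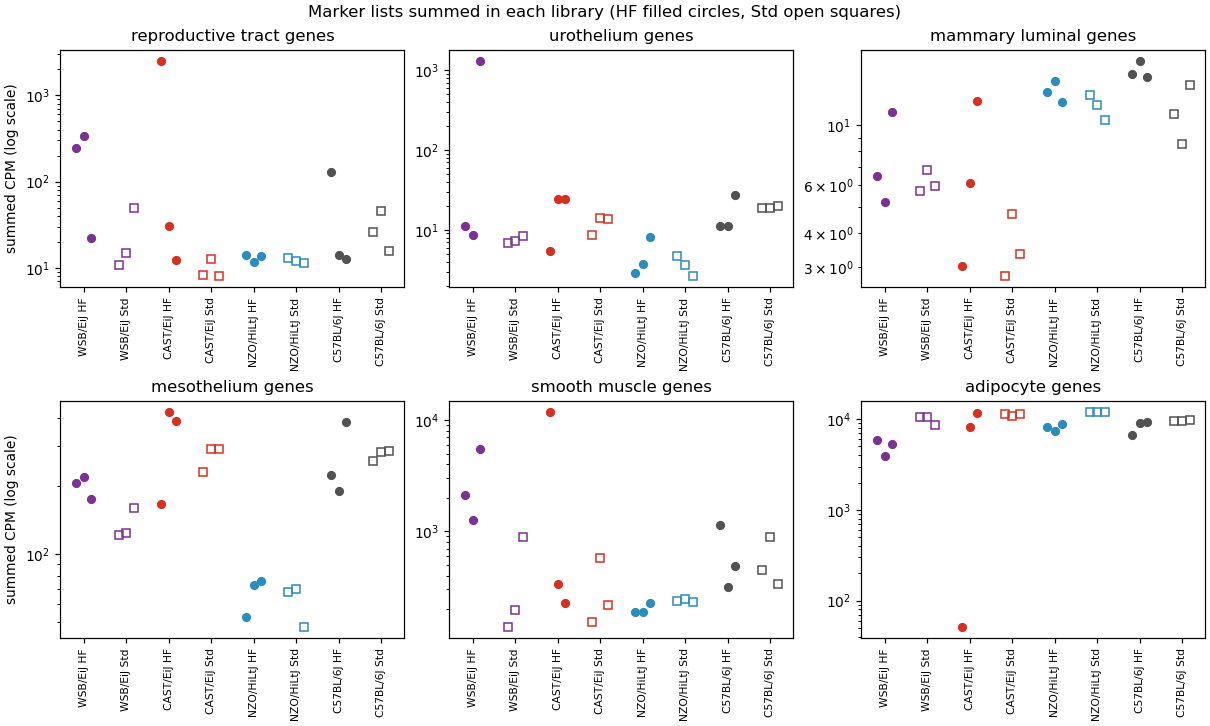
Summed CPM (log axes of different range) of 6 marker lists in each library, with HF as filled circles and Std as open squares. Reproductive tract genes are highest in CAST/EiJ HF 1 at 2506 CPM and urothelial genes in WSB/EiJ HF 3 at 1323 CPM, while mammary luminal genes stay at 17.3 CPM or less, and adipocyte genes are lowest in CAST/EiJ HF 1 at 51.3 CPM.

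Smooth muscle genes, of the walls of uterus, bladder and vessels, moved with the epithelial genes. Their 6 genes summed to 11970 CPM in CAST/EiJ HF 1, 5459 CPM in WSB/EiJ HF 3, 2104 CPM in WSB/EiJ HF 1, 1267 CPM in WSB/EiJ HF 2, 1144 CPM in C57BL/6J HF 1 and 894 CPM in WSB/EiJ Std 3. The 18 other libraries had 138 to 894 CPM. Of the skin list, Krt1, Krt2 and Lor were at 0.519 CPM or less in all 24 libraries, while Krt10 was at 0.664 to 5.05 CPM. That list summed to 1.76 to 5.91 CPM in the 6 libraries and to 1.09 to 7.38 CPM in the other 18. Of the intestinal list, Cdx2 was at 0 and Lgals4 at 6.59 to 19.6 CPM. Its sum was 8.8 to 17.6 CPM in the 6 libraries and 6.67 to 19.8 CPM in the other 18. How much tissue of another kind contributed to each keratin value was not tested.

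In the 18 libraries without Pax8 or Upk2 the simple keratins were set against the mesothelium, the lining of body cavities, which carries Krt7, Krt8, Krt18 and Krt19 but little Epcam. The 6 mesothelial genes (Msln, Upk3b, Wt1, Lrrn4, Gpm6a and Bnc1) summed to 47.4 to 75.8 CPM in NZO/HiLtJ and to 122 to 428 CPM in the other strains. The fat is labelled subcutaneous, which lines no body cavity, and the source of these transcripts was not tested. For 1000 CPM of these genes there were 47.7 to 112 CPM of Krt7, with a median of 69.8 over 2 WSB/EiJ libraries, 68.5 over 5 of CAST/EiJ, 67.8 over 6 of NZO/HiLtJ and 70 over 5 of C57BL/6J. The strain differences in Krt7 were thus close to those in the mesothelial sum. Krt8 came to 10.5 to 40.8 CPM and Krt18 to 7.85 to 24.0 CPM per 1000. The same ratio for Krt7 was 1980 in CAST/EiJ HF 1 and 2470 in WSB/EiJ HF 3. In CAST/EiJ HF 1 Wt1 made up 136 CPM of the mesothelial sum of 166 CPM, and its other genes were at 9.05 CPM or less. The medians of the 18 libraries were 57.8 CPM for Wt1 and 211 CPM for the sum, so the ratio of CAST/EiJ HF 1 is not like theirs. In WSB/EiJ Std 3 the Krt7 ratio was 99.4, within the range of the 18 libraries.

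Krt19 behaved otherwise in CAST/EiJ. Per 1000 CPM of mesothelial genes it came to 20.5 to 45.5 CPM in the 5 CAST/EiJ libraries, against 89.2 to 156 CPM in the 13 libraries of the other strains, without overlap. The strain medians were 132 in WSB/EiJ, 30.4 in CAST/EiJ, 122 in NZO/HiLtJ and 138 in C57BL/6J. This ratio was looked at after the values were seen and was not tested.

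**Figure D4:**
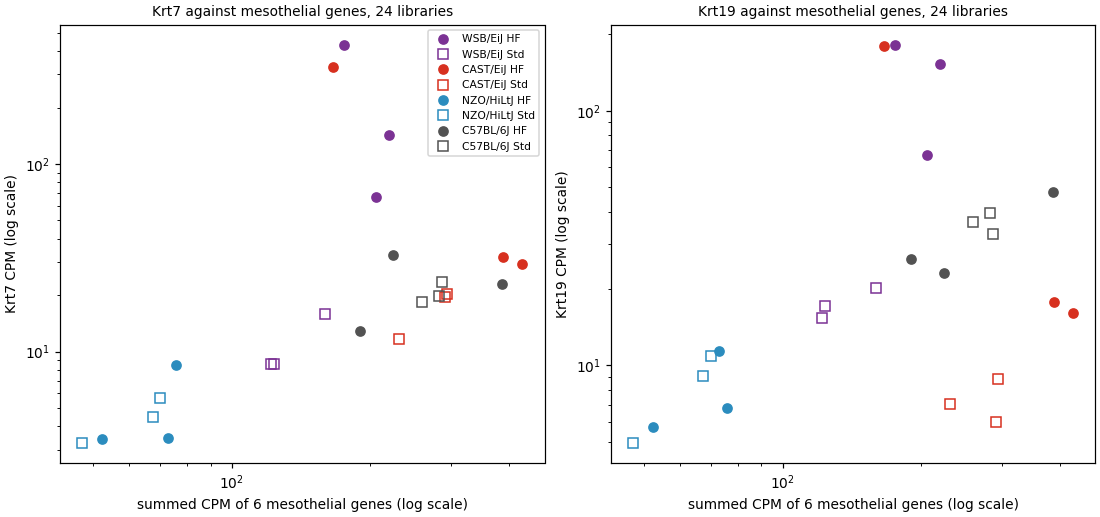
Krt7 (left) and Krt19 (right) in CPM against the summed CPM of 6 mesothelial genes (log axes) in 24 libraries, coloured by strain, with HF filled and Std open. Krt7 follows the mesothelial sum in 18 libraries, with 47.7 to 112 CPM per 1000, while Krt19 in 5 CAST/EiJ libraries lies lower for the same sum, at 20.5 to 45.5 CPM per 1000.

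The effect of diet was tested in each strain with edgeR's quasi-likelihood F test on all 24 libraries, with Benjamini-Hochberg adjustment over 20035 genes, and a gene was called at an adjusted p below 0.05. Fold changes are log2 of HF over Std ± SE, on TMM-scaled libraries. In WSB/EiJ 6 of the 10 members were called, all higher on HF, where 12.9% of all genes tested were called higher and 8.61% lower. Krt7 rose by 4.02 ± 0.81 (adjusted p = 0.00563), Krt8 by 4.50 ± 1.00 (adjusted p = 0.00826), Krt18 by 4.41 ± 1.09 (adjusted p = 0.0125) and Krt19 by 2.64 ± 0.66 (adjusted p = 0.0128). Krt15 (adjusted p = 0.0101) and Elf5 (5.72 ± 1.59, adjusted p = 0.0193) were called on the strength of WSB/EiJ HF 3, and the fold of Krt15 against 0, 1 and 0 counts depends on the prior count of the fit. Epcam (3.81 ± 1.67), Cdh1 (4.37 ± 1.97), Muc1 (3.83 ± 1.57) and Krt14 (2.03 ± 1.09) were not called in edgeR, with adjusted p of 0.106, 0.114, 0.0865 and 0.18. The HF libraries lay above the Std libraries for 8 members, with Elf5 and Muc1 as the exceptions, and for 36.9% of all genes tested. They lay below for 0 members and for 9.95% of genes. The median log2 fold change of the 10 was 4.20, against 0.07 over all genes tested.

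All 3 WSB/EiJ HF libraries are among the 6 that stand apart, so in this strain diet and tissue content cannot be told apart. Without WSB/EiJ HF 3, Krt7 (2.91, adjusted p = 0.0103), Krt8 (3.93, adjusted p = 0.0122) and Krt19 (2.29, adjusted p = 0.0271) remained called in edgeR and Muc1 was added (4.39, adjusted p = 0.0497). Krt18 (2.64, adjusted p = 0.0541), Krt15 (3.72, adjusted p = 0.143) and Elf5 (1.31, adjusted p = 0.452) were then not called. Without CAST/EiJ HF 1 and WSB/EiJ HF 2 and HF 3, 5 members were called, with Krt8 at 3.37 and Krt7 at 2.28, and WSB/EiJ HF 1 is then the lone HF library of its strain, assumed to vary like the other groups. Without WSB/EiJ Std 1 the call of Krt7 was the 1 left (3.91, adjusted p = 0.0447), and Krt8 had 4.26 with an adjusted p of 0.0562. WSB/EiJ Std 3 is also one of the 6, and without it Epcam had 6.68 and was called (adjusted p = 0.0453, edgeR), while Cdh1 had 7.09 with an adjusted p of 0.0675.

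In CAST/EiJ 3 members were called higher on HF and 0 lower, where 3.27% of genes were called higher and 1.6% lower. Krt8 rose by 4.38 ± 1.00 (adjusted p = 0.037), Krt19 by 3.02 ± 0.67 (adjusted p = 0.0367) and Muc1 by 6.49 ± 1.79 (adjusted p = 0.0469) in the quasi-likelihood F test of edgeR. Krt7 had 2.65 ± 0.77 and missed the threshold (adjusted p = 0.0514). Of the 24 fits that left out 1 library, 13 called 0 members. Without CAST/EiJ HF 1, the highest HF library for 8 of the members, 0 of 10 were called, with Krt8 at 1.32 (adjusted p = 0.322), Krt19 at 1.13 (adjusted p = 0.208) and Muc1 at 0.11 (adjusted p = 0.994), and Epcam (4.99 with it) came to -0.43. Krt7, Krt8, Krt18 and Krt19 of CAST/EiJ HF 2 and HF 3 still lay above all 3 CAST/EiJ Std libraries, and the mesothelial sum was 428 and 388 CPM in these, against 231 to 293 CPM on Std. The part of the mesothelium in this was not tested. Without CAST/EiJ Std 2, the library with skeletal muscle transcripts and the highest Epcam and Cdh1 of the 18, 0 members were called, with larger fold changes for Krt8 (4.66, adjusted p = 0.0935), Krt19 (3.13, adjusted p = 0.0921) and Muc1 (7.03, adjusted p = 0.117) and with Krt14 at 3.89, against 1.5 with it. All 3 CAST/EiJ HF libraries lay above the Std libraries for 4 members (Krt7, Krt8, Krt18 and Krt19) and for 16.9% of all genes tested, and below for 0 members and for 6.56% of genes. The median log2 fold change of the 10 members was 3.70, against 0.05 over all genes.

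In NZO/HiLtJ 0 of 10 members were called, where 2.95% of genes were called higher and 1.94% lower, and 0 of 10 had an unadjusted p below 0.05. DESeq2 and limma voom also called 0. Epcam, the member whose libraries did not overlap, had -2.19 ± 2.08 and an adjusted p of 0.698 in edgeR. With the 6 NZO/HiLtJ libraries alone, where the spread of the other strains does not enter, it fell by the same 2.19 with an adjusted p of 0.0213, and without the 6 libraries that stand apart its adjusted p was 0.0375. Over all genes tested, 21.1% had all 3 NZO/HiLtJ HF libraries below the Std libraries and 25.3% above, where 0 members were. Of the marker lists of other tissues, those of liver and kidney moved furthest in the same direction. The pan-epithelial list had a median log2 fold change of -1.08 with 0 called, and the list of other keratins 0.004 with 1 called higher. Apart from these, the remaining lists had medians from -0.74 (basal epithelium) to 1.36 (mammary luminal). Some were below 0 and some above, with 0 genes called. All 6 liver genes were called lower on HF (median -5.25), with sums of 30.2, 17.6 and 5.87 CPM on HF, against 733, 1235 and 128 CPM on Std. The 6 kidney genes had a median of -4.28 with 0 called, and summed to 1.69, 2.56 and 2.24 CPM on HF, against 4.88, 79.7 and 21.3 CPM on Std. NZO/HiLtJ Std 2 was the highest NZO/HiLtJ library for both lists and for Epcam, and the part of these tissues in the Epcam value was not tested. The other 9 members ranged from -1.10 (Cdh1) to 0.59 (Krt15), and the median of the 10 was -0.32, against -0.01 over all genes.

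In C57BL/6J 0 of 10 members were called, where 0.00998% of genes were called higher (2 genes) and 0% lower. At an unadjusted p below 0.05 in edgeR there were 0 members and 734 genes, and DESeq2 and limma voom called 0 members. Epcam had 3.27 ± 1.69 and Cdh1 3.57 ± 1.95, both with C57BL/6J HF 1 far above the other 5 libraries. Without that library Epcam came to -0.35 and Cdh1 to -0.28. The HF libraries lay above the Std libraries for 0 members and 4.53% of genes, and below for 0 members and 7.14%. The median over the members was 0.35, against 0.02 over all genes.

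**Figure D5:**
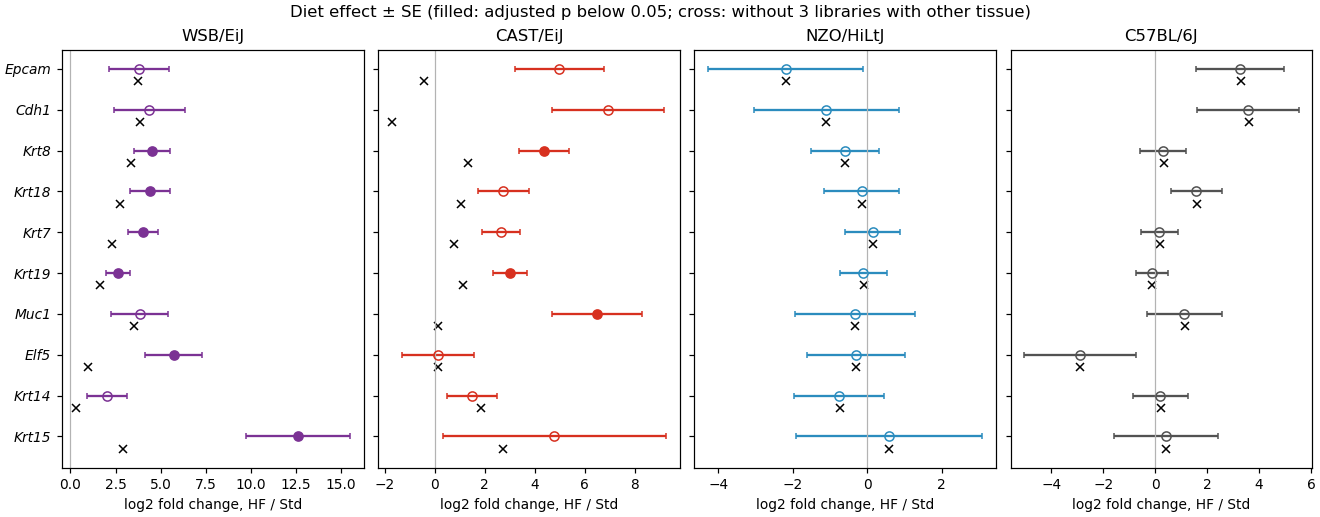
Log2 fold change of HF over Std ± SE in each strain (axes of different range), filled where the adjusted p of edgeR's quasi-likelihood F test is below 0.05, with crosses for the same value without CAST/EiJ HF 1 and WSB/EiJ HF 2 and HF 3. Calls are seen in WSB/EiJ (6 of 10) and CAST/EiJ (3 of 10), and in CAST/EiJ the crosses for Epcam, Cdh1 and Muc1 lie near or below 0.

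Averaged over the 4 strains, 7 members were called higher on HF and 0 lower, where 17.1% of genes were called higher and 11.8% lower. They were Krt7 (1.75 ± 0.37), Krt8 (2.15 ± 0.46), Krt18 (2.15 ± 0.50), Krt19 (1.36 ± 0.32), Muc1 (2.78 ± 0.78), Cdh1 (3.45 ± 0.98) and Krt15 (4.60 ± 1.51), with adjusted p of 0.00554 to 0.0343 in edgeR. Epcam had 2.47 ± 0.94 and an adjusted p of 0.0552. Without CAST/EiJ HF 1 the calls were Krt7 (1.28), Krt8 (1.39), Krt18 (1.73) and Krt19 (0.88), and Epcam came to 1.12. Without the 3 libraries left out above the same keratins and Muc1 were called, with 0.85 for Krt7, 1.11 for Krt8, 1.32 for Krt18, 0.64 for Krt19 and 1.11 for Muc1.

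The interaction of strain and diet was called for Krt8 (adjusted p = 0.0454, edgeR) among the 10 members, where 3.08% of genes were called, and for 0 members in 19 of 24 fits that left out 1 library. Between the 4 strains on HF all 10 members differed (adjusted p of 0.000166 for Krt7 to 0.0262 for Cdh1, edgeR), where 56% of genes did, and without those 3 libraries 8 did, Krt15 and Elf5 being lost. On Std, Krt19 was the 1 member called (adjusted p = 0.016, edgeR), where 49.6% of genes were. Its Std mean was 17.5 ± 2.37 CPM for the WSB/EiJ mice, 7.27 ± 1.44 CPM for CAST/EiJ, 8.30 ± 3.04 CPM for NZO/HiLtJ and 36.4 ± 3.57 CPM for C57BL/6J (SD, n = 3 each). CAST/EiJ and NZO/HiLtJ overlap there, and C57BL/6J and WSB/EiJ stand above both. Without the 3 HF libraries, which removes their spread from the fit, Krt7 (adjusted p = 0.00048) and Krt8 (adjusted p = 0.0352) were called as well.

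Other epithelial genes were counted in the same tests, from lists written with earlier results of these data known. Of 20 pan-epithelial genes, among them claudins, Grainyhead-like and Esrp splicing factors, 7 were called higher on HF in WSB/EiJ, where 12.9% of all genes were, led by Mal2 (4.16), Tmem30b (3.39), Prom2 (9.19) and Spint2 (2.88). Prom2 lay at 158 CPM in WSB/EiJ HF 3, but at 0.0578 and 0.0764 CPM in HF 1 and HF 2, within the range of the 18 libraries. Without WSB/EiJ HF 3 the count of pan-epithelial genes called was 3, and without CAST/EiJ HF 1 it was 18. In CAST/EiJ 4 were called, among them St14 (8.37), Elf3 (10.02) and Lad1 (7.16), where 3.27% of all genes were. Their sum was 2067, 39.4 and 42.3 CPM in the CAST/EiJ HF libraries, against 30.1, 45.5 and 32.4 CPM on Std, and without CAST/EiJ HF 1 or without CAST/EiJ Std 2 0 were called. Averaged over strains 15 were called higher, where 17.1% of all genes were, with 6 left without CAST/EiJ HF 1 and 4 without the 3 libraries left out above, and 0 were called lower in these tests. In NZO/HiLtJ and C57BL/6J 0 of the 20 were called, and the median log2 fold change was -1.08 and 2.65. All 5 urothelial genes tested were called higher on HF in WSB/EiJ, Upk1a by 9.76, Snx31 by 9.72, Krt20 by 7.04 and Upk1b by 3.02. The last, Krt13, lay at 0.318, 1.63 and 0.0544 CPM in HF 1, HF 2 and HF 3, lowest in the library with the uroplakins. In the same order Upk1a lay at 1.47, 0.504 and 348 CPM and Snx31 at 0.0578, 0 and 239 CPM. Krt20 lay at 0.101, 0.993 and 27.8 CPM and Upk1b at 9.03, 5.04 and 192 CPM. Of 10 reproductive tract genes 0 were called, although their median was 2.82. Without WSB/EiJ HF 3 the urothelial count was 2 of 5. In CAST/EiJ 3 of 10 reproductive tract genes were called, Greb1 (6.17), Sprr2f (10.33) and Ltf (9.79), and 0 without CAST/EiJ HF 1 or without CAST/EiJ Std 2. Of the mammary list 0 of 5 tested were called in any strain or in the average, and of the mesothelial list 0 of 6, while all 6 mesothelial genes differed between strains on Std, where 49.6% of all genes did.

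Over the 24 libraries the ranks of Krt7, Krt8, Krt18 and Epcam were alike, and those of Krt19 less so. As a description over libraries that share tissue content, Spearman's rho was 0.954 for Krt7 and Krt18, 0.953 for Krt7 and Krt8, 0.933 for Krt8 and Krt18, and Epcam had 0.933 with Krt18, 0.872 with Krt8 and 0.871 with Krt7. Krt19 had 0.799 with Krt8, 0.722 with Krt7, 0.648 with Krt18 and 0.550 with Epcam. Elf5 was unlike the others, with -0.07 against Epcam and -0.39 against Muc1. The genes outside the 10 with the pattern most like Epcam were Proser2 (rho 0.969), Wnt7b (0.957), Galnt17 (0.939), Marveld3 (0.935) and Ank3 (0.926). Those most like Muc1 were Pgr, the progesterone receptor (0.934), Tnfaip8l3 (0.930), Vtcn1 (0.924), Pln (0.907) and Slc2a12 (0.906). For Krt14 they were Dnaja4 (0.791), Ptgs2 (0.750), Myo5b (0.743), Clic3 (0.742) and Pard6b (0.738), and for Elf5 Gnao1 (0.781), Pigt (0.765), Cck (0.765), Otop1 (0.745) and Ryr2 (0.736), so these 2 had no gene as close as Epcam and Muc1 had.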

How the data were processed

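Poly(A) RNA of 24 mice was sequenced after TruSeq library preparation, per the labels' protocols. The authors deposited gene-level expected counts, which are whole numbers, and how they were rounded is not given in the sources used here. The submitters' processing notes list CASAVA 1.8.0, Bowtie 0.12.8 and RSEM 1.2.1, and mm9 and NCBIM37 as builds, without their roles. Reads shared by similar genes may be split by such estimates. Of 37991 identifiers 32919 matched a symbol, and 0 columns were left unmapped. Each library has a title of its own and was counted as a separate mouse. The chi-square per degree of freedom between 2 libraries of a group was 22.1 to 1490, which by itself does not show separate animals.

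Levels are CPM over the unscaled library total. Tests used R 4.3.3 and edgeR 4.0.16 with TMM scaling and the low-count filter by group, which removed 17956 genes and left 20035, with 1 coefficient per group, 16 residual degrees of freedom and a biological coefficient of variation of 40.06%. P-values are 2-sided. DESeq2 1.42.0, limma 3.58.1 (voom), other scalings, no filter and left-out libraries were the alternatives. The test was checked on simulated data in which changed genes were well expressed and had the same fold in all 3 WSB/EiJ HF libraries. That check does not cover single libraries with other tissue or genes of low level. The members, lists and alternatives were chosen with earlier results of these data known. The text names all members, up to 4 genes per list by adjusted p, or by level, and the 5 genes most alike in rank for each of Epcam, Elf5, Krt14 and Muc1. A gene that this rule names is not reported here. Single marker genes given per library, the limit of 1 CPM and the list counts without single libraries were chosen after values were seen. Floors of 3 counts cover counting error only.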

Additional observations from a re-analysis of the deposited data

Results flagged for a closer look

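For Krt8 the interaction of strain and diet had an adjusted p of 0.0454 in edgeR. This call was lost without a low-count filter (0.0546), in limma voom (0.167) and in 19 of 24 fits that left out 1 library. The log2 fold change of HF over Std was 4.50 in WSB/EiJ, 4.38 in CAST/EiJ, -0.59 in NZO/HiLtJ and 0.30 in C57BL/6J. WSB/EiJ HF 2 and HF 3 and CAST/EiJ HF 1 are part of this, and without these 3 libraries the adjusted p was 0.0197 and the fold change in CAST/EiJ 1.33. For Epcam every HF library lay above the Std libraries in WSB/EiJ (3.81) and below them in NZO/HiLtJ (-2.19), while the interaction test of edgeR gave an adjusted p of 0.275.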

How the results depend on the processing

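No paired analysis was made, because each library is 1 mouse on 1 diet and nothing pairs the mice. The number of members called under each alternative is given where it moved by over 1.5 times, the cause was not tested, and no called value changed sign. For the diet effect in CAST/EiJ (3 called) DESeq2 called 7, limma voom 0 and the 6 CAST/EiJ libraries alone 0. Krt15 and Elf5 were not tested in those 6 libraries alone. The data without 3 libraries (CAST/EiJ HF 1 and WSB/EiJ HF 2 and HF 3) gave 0. Those without the 6 libraries with Pax8 or Upk2, chosen after seeing the data, also gave 0. The 3 are among the 6, and WSB/EiJ HF 1, C57BL/6J HF 1 and WSB/EiJ Std 3 stay in the fits that leave out the 3. In WSB/EiJ (6 called) the 6 libraries of the strain alone gave 3, and Krt14, Krt15 and Elf5 were not tested in that fit. The genes called in WSB/EiJ also changed with the method. DESeq2 added Epcam (adjusted p = 0.0249), Cdh1 (adjusted p = 0.0295) and Muc1 (adjusted p = 0.0152) and gave no adjusted p for Krt15 and Elf5. With limma voom Cdh1 was called (adjusted p = 0.0472), and Krt15 (adjusted p = 0.275) and Elf5 (adjusted p = 0.141) were not. In NZO/HiLtJ (0 called) the strain alone and the data without the 6 libraries gave 1, Epcam, lower on HF. Krt14 and Krt15 were not tested in the NZO/HiLtJ libraries alone. Averaged over strains (7 called) limma voom gave 3. For the interaction (1 called) no scaling gave 2, no filter 0, DESeq2 5, limma voom 0 and the data without the 3 libraries 2. For strains on Std (1 called) DESeq2 gave 2 and the data without the 3 libraries 3. Leaving out 1 library in turn gave 0 to 7 members in CAST/EiJ, with 0 in 13 of 24 fits and 7 without HF 2 or HF 3. The 13 left out a Std library of CAST/EiJ or C57BL/6J, any NZO/HiLtJ library or CAST/EiJ HF 1. It gave 1 (without WSB/EiJ Std 1) to 9 (without CAST/EiJ HF 1) in WSB/EiJ, with 2 without Std 2 and 4 without HF 3, 0 in NZO/HiLtJ and C57BL/6J, 4 (without CAST/EiJ HF 1) to 8 for the average, 0 to 4 (without WSB/EiJ HF 1) for the interaction, 1 to 2 for strains on Std and 8 (without WSB/EiJ HF 3) to 10 on HF. Over all genes the calls in CAST/EiJ were 975, against 239 without a filter, 2207 without scaling, 2872 in DESeq2 and 175 in limma voom. Low counts limit Krt14, Krt15 and Elf5, which had 20 counts or fewer in most libraries.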

Other observations

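Of 13 other keratins 9 passed the low-count filter. In WSB/EiJ, where 12.9% of all genes were called higher on HF, 4 of the 9 were (Krt20 by 7.04, Krt4 by 2.72, Krt80 by 1.22 and Krt13 by 5.59 on the log2 scale), 1 in NZO/HiLtJ (Krt4 by 2.78, adjusted p = 0.0348 in edgeR, where 2.95% of all genes were) and 0 in CAST/EiJ and C57BL/6J. Krt4, a keratin of stratified mucosa, was called in the strain with the least Epcam. It had 19, 31 and 10 counts in the NZO/HiLtJ HF libraries, against 3, 5 and 1 counts in the NZO/HiLtJ Std libraries, so the HF libraries lay above the Std libraries at very low levels. In WSB/EiJ it had 7, 4 and 15 counts on HF, against 0, 2 and 1 counts on Std.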
